A study of Homo sapiens with 3 samples.

Results

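The kinesin motor family was described in RPE-1, a telomerase-immortalised human cell line derived from the pigmented epithelium of the retina. Its members were the protein-coding genes whose symbol is KIF or KIFC followed by a number and at most 1 letter and 1 further digit. This rule took 42 of the 58735 genes in the table. RNA had been poly(A)-selected and sequenced in 3 libraries of 1 group. The cells carried centrin 2 tagged with GFP, which marks centrioles, and a PLK4 gene under a doxycycline-inducible rtTA promoter. They had received a scramble siRNA, and PLK4 had not been induced. Whether the line is 1 clone, and whether the libraries came from separate cultures, is not given in the sources used here, so what differs between libraries may be technical. The libraries held 49279692, 60040029 and 46625774 counts, of which 114397, 146219 and 117581 fell on kinesin genes (0.232%, 0.244% and 0.252%).

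Kinesins are motor proteins that hydrolyse ATP to move along microtubules, and most carry cargo toward the plus end. Some members build and shorten the mitotic spindle, position chromosomes and complete cytokinesis. Others carry vesicles and organelles or move material into the primary cilium. A few do not walk but take tubulin from microtubule ends. Members were grouped by known role into 14 genes of mitosis, 10 genes of the kinesin-2 class, the cilium and the centriole, 13 genes of cargo transport and 5 others.

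Promoter sequences are shown because many mitosis genes are known to share a pair of elements there, the CCAAT box bound by NF-Y and the cell cycle homology region bound by the MuvB core. RefSeq windows on GRCh38.p14, with 250 bases before and 50 bases after the start of transcription, matched 34 of the 42 members in 43 windows. The 8 members without a window were KIF13B, KIF19, KIF21B, KIF26B, KIF27, KIF5A, KIFC2 and KIFC3. The motifs searched on both strands were CCAAT for the first element, and TTTGAA or the variant TTCGAA for the second. TTCGAA reads the same on both strands and was counted once, and motifs that overlapped each other were each counted. Of the 14 mitosis members, 11 held CCAAT, 11 held a motif of the second element, and 10 held both kinds. The 10 include KIF4B, an intronless copy of KIF4A. In KIF14, KIF18B, KIF20B, KIF4B and KIFC1 the second motif lay after the start. Of the 20 other members with a window, 7 held CCAAT and 2 held both kinds, KIF24 and KIF5B. By window, both kinds were present in 66.7% of the 15 mitosis windows, in 7.14% of the 28 other kinesin windows and in 6.38% of all 35116 windows. CCAAT alone was common, in 34.6% of all windows against 73.3% of the mitosis windows. TTTGAA was present in 15.2% and TTCGAA in 1.45% of all windows. A match is a description of the letters and not a measured binding site, and no match says only that these letters are not in the window. The stretches below are the 80 bases before the RefSeq start, read in the direction of the gene, with the motifs in capitals (ATTGG is CCAAT and TTCAAA is TTTGAA on the other strand). They were chosen, after the matches were seen, from members of each role whose stretch had fewer than 30 bases in exons of GENCODE release 29. These overlaps were 14 bases in KIF4A, 19 in KIF2C, 6 in KIF5B, 2 in KIF1C and 0 in KIF11, KIF14 and KIF3B. KIF11 and KIF4A show both kinds, KIF14 shows CCAAT and has TTTGAA after its start, KIF2C shows neither, and the last 3 are members of other roles.
KIF11 (chr10:92593050-92593129, + strand): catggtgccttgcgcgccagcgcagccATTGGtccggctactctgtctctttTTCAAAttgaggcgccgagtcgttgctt
KIF4A (chrX:70290024-70290103, + strand): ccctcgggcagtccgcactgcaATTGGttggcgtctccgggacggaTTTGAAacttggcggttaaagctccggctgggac
KIF14 (chr1:200620752-200620831, - strand): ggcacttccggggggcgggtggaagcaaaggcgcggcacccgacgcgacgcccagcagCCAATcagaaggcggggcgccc
KIF2C (chr1:44739757-44739836, + strand): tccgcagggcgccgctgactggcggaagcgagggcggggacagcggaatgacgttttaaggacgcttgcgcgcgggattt
KIF5B (chr10:32056426-32056505, - strand): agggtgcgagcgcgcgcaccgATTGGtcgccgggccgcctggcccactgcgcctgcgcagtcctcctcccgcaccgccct
KIF1C (chr17:4997870-4997949, + strand): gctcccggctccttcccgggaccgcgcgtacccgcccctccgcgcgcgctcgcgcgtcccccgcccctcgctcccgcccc
KIF3B (chr20:32277571-32277650, + strand): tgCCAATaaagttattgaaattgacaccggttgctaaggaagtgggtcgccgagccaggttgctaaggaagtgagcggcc
In KIF11 the CCAAT match began 53 bases and the TTTGAA match 28 bases before the start, and in KIF4A they began 58 and 34 bases before it. KIF18A had the pair at 45 and 10 bases, KIF23 at 64 and 55 bases, and KIF22 had CCAAT at 66 and TTCGAA at 27 bases. Of the 80 bases before the RefSeq start, however, all 80 lay in GENCODE exons in KIF18A and in KIF23, and 32 in KIF22. KIF5B held CCAAT at 59 bases, with its TTTGAA at 140 bases, outside the stretch shown.

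Most kinesin genes were expressed, and the mitosis members stood highest as a group. Levels are given as CPM, the counts per 1000000 of TMM-scaled library totals, and between genes as RPKM, which divides CPM by the kb of annotated exon. A CPM of at least 1 in each library counted as detected. By this rule 32 of 42 members were detected, beside 57.7% of all 19951 protein-coding genes. The median level was 16.6 RPKM over all 14 mitosis members, 4.27 over the 13 cargo members and 1.41 over the 10 cilium members, against 1.15 over all protein-coding genes. Over detected genes alone, the medians were 20.02, 6.24 and 1.75 RPKM, against 6.09 for protein-coding genes. By median, detected cilium members thus stood below the typical detected gene, and cargo members near it. Single detected members spread widely, from 0.131 to 17.4 RPKM in the cilium group and from 1.29 to 48.5 in the cargo group. The median over all 42 members was 4.34 RPKM. KIF5B and KIF1C alone gave 24.8% of the kinesin CPM, and the 10 most abundant members gave 64.8%. In order of RPKM, KIF5B led, followed by KIF1C, and the ranges of these 2 genes over the libraries did not overlap each other or the next gene. The next 6 places were all held by mitosis members (KIF2C, KIF20A, KIF11, KIF20B, KIF23 and KIFC1), each overlapping its neighbour. Of the 31 neighbouring pairs among detected members, 20 overlapped in range, so the order within such runs is not resolved.

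**Figure D1:**
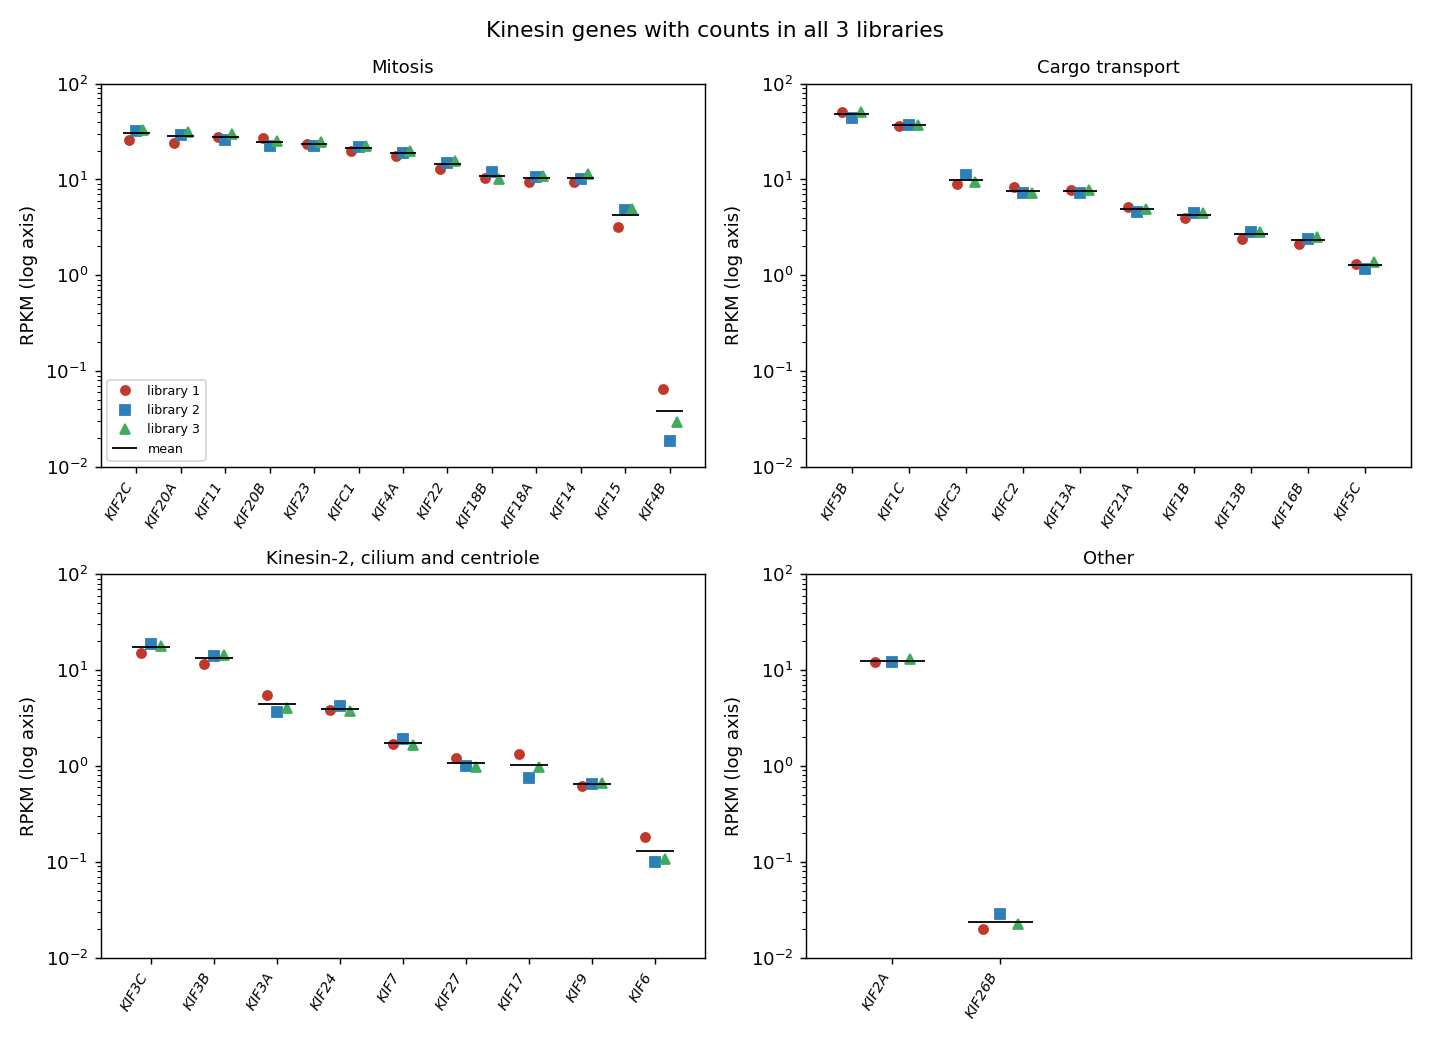
RPKM of each kinesin gene with counts in all 3 libraries, on a log axis, by role; points are libraries and the line is their mean. Mitosis members other than KIF4B lie between means of 4.28 and 30.4 RPKM, while cargo and cilium members spread more widely.

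All mitosis members except KIF2B and KIF4B were detected. KIF2C, the depolymerase MCAK that corrects wrong attachments at centromeres, stood at 26.1, 32.2 and 33.0 RPKM in libraries 1, 2 and 3 (mean 30.4 ± 3.79 SD, n = 3; ENSG00000142945, chromosome 1, 44739818 to 44767767). KIF20A, the MKLP2 motor that brings the chromosomal passenger complex to the central spindle, stood at 24.3, 29.3 and 31.1 RPKM (28.2 ± 3.52 SD; ENSG00000112984, chromosome 5, 138178719 to 138187715). In both genes library 1 was the lowest, and libraries 2 and 3 lay closer to each other than to library 1. In KIF20A libraries 2 and 3 also differed beyond counting noise, as given below. KIF11, the Eg5 motor that slides spindle poles apart, stood at 27.8, 25.8 and 29.6 RPKM (27.7 ± 1.90 SD; ENSG00000138160, chromosome 10, 92593286 to 92655395). KIF15, a motor that can also hold the spindle bipolar, stood at 3.19, 4.76 and 4.89 RPKM (4.28 ± 0.944 SD; ENSG00000163808, chromosome 3, 44761717 to 44873376). It was the lowest of the 12 detected mitosis members, and its library 1 value was again below the other two.

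Cytokinesis was represented by 4 further detected motors. KIF20B (24.9 ± 2.29 RPKM, SD, n = 3) acts late in abscission, and KIF23 (23.3 ± 1.01) is the MKLP1 subunit of centralspindlin. KIF4A (18.7 ± 1.11) is a chromokinesin that works with PRC1 at the midzone, and KIF14 (10.3 ± 1.04) binds citron kinase and PRC1. KIF22, the chromokinesin Kid, stood at 14.5 ± 1.38 RPKM. The plus-end motors of kinesin-8, KIF18A, which dampens chromosome movement, and KIF18B, which acts on astral microtubules, stood at 10.4 ± 0.771 and 10.8 ± 0.897. KIFC1, the minus-end motor HSET that is known for clustering extra centrosomes into a bipolar spindle, stood at 19.8, 21.6 and 22.5 RPKM (21.3 ± 1.37 SD; ENSG00000237649, chromosome 6, 33391536 to 33409924). Its level was thus within the run of the major spindle motors in cells in which PLK4 had not been induced. KIF4B, an intronless copy of KIF4A, had 14, 5 and 6 counts. Such near-identical copies can divide reads, so its counts are uncertain. KIF2B, a relative of KIF2C, had 0 counts in each library.

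KIF3C and KIF3B were the highest members of the cilium and centriole group, while the ranges of KIF3A and KIF24 overlapped. KIF3A and KIF3B form, with the accessory subunit KIFAP3, the motor of anterograde intraflagellar transport, and KIF3C is a related chain that can pair with KIF3A. KIF3C stood at 15.2, 18.9 and 18.1 RPKM (17.4 ± 1.92 SD, n = 3; ENSG00000084731, chromosome 2, 25926596 to 25982749). KIF3B stood at 11.6, 14.03 and 14.3 RPKM (13.3 ± 1.45 SD; ENSG00000101350, chromosome 20, 32277664 to 32335011). KIF3A stood at 5.49, 3.66 and 4.06 RPKM (4.40 ± 0.961 SD; ENSG00000131437, chromosome 5, 132692628 to 132737638). Library 1 was thus the lowest for KIF3B and KIF3C and the highest for KIF3A. KIFAP3 stood at 5.02, 5.54 and 5.77 RPKM, near KIF3A.

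The other members of this group had means of at most 3.97 RPKM. KIF24, a depolymerase at the mother centriole that restrains cilium formation, stood at 3.97 ± 0.260 RPKM (SD, n = 3). KIF7, which organises the cilium tip and controls GLI factors of Hedgehog signalling, stood at 1.75 ± 0.122, and its paralogue KIF27 at 1.07 ± 0.128. KIF17, which can enter cilia, stood at 1.34, 0.759 and 0.975 RPKM, highest in library 1. KIF9 and KIF6, genes linked to motile cilia, stood at 0.642 ± 0.0259 and 0.131 ± 0.0464 RPKM, and KIF19, a depolymerase of motile cilia, had 0 counts in each library. Of 8 markers of multiciliated cells, 3 were detected (CCNO, MCIDAS and DNAH5), FOXJ1 had 5, 2 and 0 counts, and DEUP1, TEKT1 and RSPH1 had none. In bulk RNA, fewer cells expressing a gene and less RNA per cell cannot be told apart.

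Cargo transport was dominated by 1 kinesin-1 and 1 kinesin-3 gene. KIF5B, the ubiquitous kinesin-1 heavy chain, stood at 51.1, 44.1 and 50.4 RPKM (48.5 ± 3.83 SD, n = 3; ENSG00000170759, chromosome 10, 32009010 to 32056431). KIF1C, a fast long-range carrier of integrin-containing vesicles, stood at 36.5, 37.1 and 36.7 RPKM (36.8 ± 0.287 SD; ENSG00000129250, chromosome 17, 4997948 to 5028401). KIF5B was lowest in library 2, while KIF1C was nearly level, with a coefficient of variation of 0.782% in CPM, the smallest of the tested members. The other detected members were lower, from KIFC3 (9.83 ± 1.07 RPKM), a minus-end motor at adherens junctions, down to KIF5C (1.29 ± 0.117), a kinesin-1 chain best known from neurons. Between them lay KIFC2 (7.62 ± 0.607), KIF13A (7.61 ± 0.331), which moves recycling endosomes, KIF21A (4.87 ± 0.249), a regulator of microtubule growth, and KIF1B (4.27 ± 0.310), a carrier of mitochondria and vesicles. KIF13B stood at 2.68 ± 0.238 and KIF16B, a motor of early endosomes, at 2.33 ± 0.205.

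Among kinesins known from neurons, KIF1A, KIF5A and KIF21B had few or no counts, while KIF5C was detected. KIF1A, the carrier of synaptic vesicle precursors, had 0 counts in each library, KIF5A had 0, 11 and 9 counts, and KIF21B had 0, 4 and 0. Of 10 neuron markers, 5 were detected, led by SYT1 at 13.9 ± 0.454 RPKM (SD, n = 3), while RBFOX3, STMN2 and NEFL had 0 counts. KIF2A, a depolymerase of spindle poles and growing processes, was the only detected member outside the 3 role groups, with 12.2, 12.2 and 13.0 RPKM (12.5 ± 0.462). KIF26B had 14, 25 and 15 counts, and KIF12, KIF25 and KIF26A had none. In all, 6 of 42 members had 0 counts in each library, beside 22.5% of protein-coding genes. Where no read was counted, the limit of 3 counts corresponds to 0.0618 CPM in library 1, 0.0494 in library 2 and 0.0641 in library 3, counting error alone.

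Some kinesins carry other symbols and fell outside the rule. CENPE, the kinetochore motor of chromosome congression, stood at 17.3 ± 1.56 RPKM (SD, n = 3), within the range of the mitosis members, and STARD9 at 0.819 ± 0.113. Of 22 listed partners and adaptors, 19 were detected, and KLC3, MAPK8IP2 and MAP7 were not. Among the kinesin-1 light chains, KLC2 led at 17.0 ± 0.650 RPKM, above KLC4 (2.55 ± 0.199) and KLC1 (2.41 ± 0.128). Without length KLC1 stood above KLC4, at 46.5 against 16.4 CPM, and KLC2 still led at 93.2. The annotated exons of KLC1 cover 19251 bases against 6421 in KLC4. Of the exon length of KLC1, 30.3% overlaps genes on the other strand and 10.3% a gene on the same strand. TPX2, which binds KIF11 on the spindle, stood at 57.9 ± 2.49 RPKM, and RACGAP1, the partner of KIF23 in centralspindlin, at 36.3 ± 2.74. PRC1, the midzone partner of KIF4A, read 2.39 ± 0.183 RPKM, but 57.6% of its exonic bases also belong to a second gene annotated on that strand.

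Paralogues were compared within each library as log2 ratios of counts per unit of exon length, with 0.5 added to each count. An exact sign-flip test over 3 libraries cannot go below p = 0.25, so only the ratios, their SD and the number of libraries are given. In 12 of 14 pairs the sign was the same in all 3 libraries. KIF5B exceeded KIF5C by 5.24 ± 0.04 (log2, SD), or 37.7-fold, and the 3 libraries were nearly equal. KIF1C exceeded KIF1B by 3.11 ± 0.10 (8.62-fold), and KIF11 exceeded KIF15 by 2.72 ± 0.36 (6.58-fold). These SDs cover the libraries and not the choice of length. Without length, KIF5B over KIF5C was 4.59 and KIF1C over KIF1B 2.06 (log2), and with the longest transcript 4.82 and 2.49. KIF13A exceeded KIF13B by 1.51 ± 0.17, and KIF2C exceeded KIF2A, for which the log2 ratio of KIF2A to KIF2C was -1.28 ± 0.16.

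The subunits of the kinesin-2 motor were uneven. KIF3B exceeded KIF3A by 1.08, 1.94 and 1.81 in libraries 1, 2 and 3 (mean 1.61 ± 0.46, or 3.05-fold), and the log2 ratio of KIF3A to KIF3C was -1.47, -2.36 and -2.16, so that KIF3C stood 3.99-fold above KIF3A. Both ratios were closest to 0 in library 1. The order was not resolved for KIF18A and KIF18B (-0.06 ± 0.14, KIF18A higher in 1 of 3 libraries) or for KIF20A and KIF20B (0.18 ± 0.28, KIF20A higher in 2 of 3). KIFC1 exceeded KIFC3 by 1.12 ± 0.14 per unit of length, but KIFC3 had more counts (-0.40 without length and -0.06 with the longest transcript), so that order depended on the length used. For KIF26B over KIF26A, 3 counts in each library were taken as the floor of KIF26A. The lowest ratio over the libraries was then 2.19-fold per unit of length. It takes the 14, 25 and 15 counts of KIF26B as exact, and KIF26B was itself not detected, so it is no firm lower bound.

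**Figure D2:**
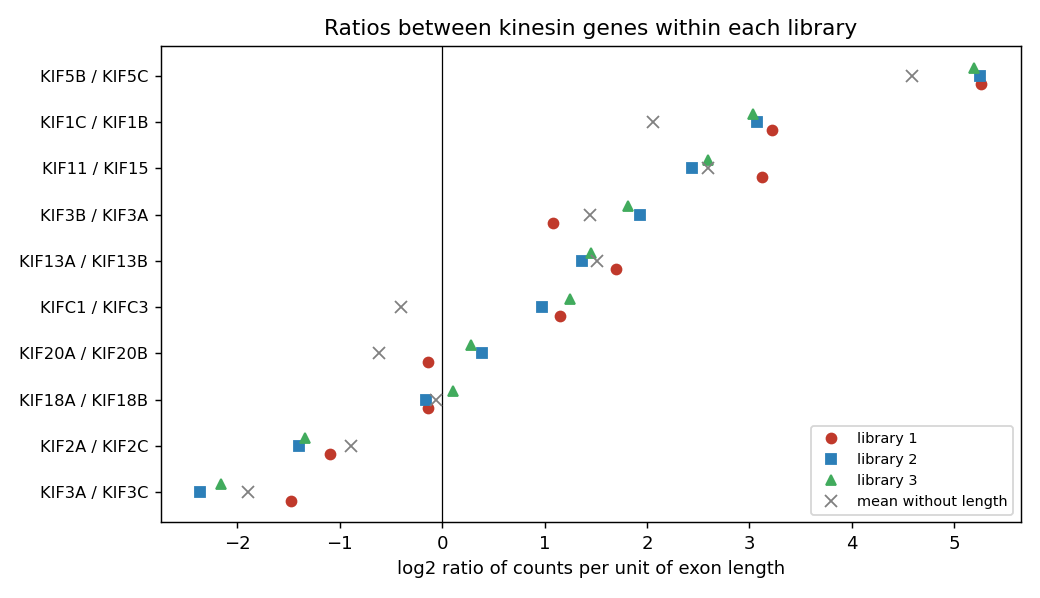
Log2 ratios of counts per unit of exon length for the 10 pairs whose second gene had at least 100 counts over the libraries; coloured points are libraries and grey crosses are means without length. KIF5B over KIF5C is the most even and the 2 pairs with KIF3A shift toward 0 in library 1.

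The spread between libraries exceeded counting noise for most kinesin genes, as it did for most genes. Each gene's 3 counts were compared with the scaled library sizes by a chi-square test, adjusted by Benjamini-Hochberg over all 16293 genes whose mean count was 10 or more. Of 33 tested members 29 were called at an adjusted p below 0.05, beside 68.6% of all tested genes. The 4 others were KIF1C, KIF7, KIF9 and KIF26B. Of the 12914 tested protein-coding genes, 9523 were called. With a coefficient of variation of 0.05 allowed on top of counting noise, 9 members were called, beside 32.5% of all tested genes. These were KIF15, KIF2C and KIF20A of mitosis, KIF3A, KIF3B, KIF3C, KIF17 and KIF6 of the cilium group, and KIFC3 of cargo transport. By that rule 4051 of the 12914 tested protein-coding genes were called. Without library 1, 14 members were called, beside 28.1% of genes in that fit, and 15 of the 29 calls were lost. The median ratio of the highest to the lowest CPM was 1.18 over the tested members. It was 1.205 over tested protein-coding genes and 1.246 over all tested genes.

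Library 1 stood apart from the other two in these data, with counts in 19953 genes against 24416 and 23050. Mitosis members were mostly lower there. Of the 12 tested mitosis members, 8 were called and lowest in library 1, beside 33.4% of all tested genes. A single member was called and highest there, KIF20B, beside 27.9%. Of the 12914 tested protein-coding genes, 4837 were called and lowest in library 1, and 3626 were called and highest. The difference of library 1 from the mean of libraries 2 and 3 was taken in log2(CPM + 0.5). Its median was -0.17 over the tested mitosis members, against -0.035 over tested protein-coding genes and -0.018 over all tested genes. The difference was -0.15 for KIFC1, -0.32 for KIF2C, -0.31 for KIF20A and -0.58 for KIF15, while KIF11 (0.01) and KIF23 (-0.0026) lay near 0. With the extra coefficient of variation, 3 of the 8 stayed called (KIF15, adjusted p = 1.38e-05; KIF2C, 0.014; KIF20A, 0.0139; chi-square test), beside 15.7% of tested genes that were called and lowest there. KIF20A, at 96.1, 116 and 123 CPM in libraries 1, 2 and 3, still differed without library 1 (adjusted p = 0.00595, chi-square test), while KIF2C (0.380) and KIF15 (0.676) did not pass. Of 10 markers of cycling cells, 8 were called and lowest in library 1, all except MKI67 and AURKB, and the median difference of the 10 was -0.21. Their summed level was 1746, 1859 and 2028 CPM in libraries 1, 2 and 3, beside 1042, 1086 and 1161 CPM for the mitosis kinesins. The part of the share of cycling cells in these differences was not tested.

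The cilium group had calls in both directions. Of its 9 tested members, 4 were called and highest in library 1 (KIF6, KIF17, KIF27 and KIF3A), beside 27.9% of all tested genes. Called and lowest there were 2 members, KIF3B and KIF3C, beside 33.4%. KIF3A stood at 37.7 CPM in library 1 against 25.1 and 27.8 (difference 0.50, adjusted p = 2.11e-32, and 4.41e-06 with the extra coefficient of variation, chi-square test). KIF3B stood at 71.0 CPM against 85.6 and 87.0 (-0.28, adjusted p = 1.3e-20, and 0.0433 with the extra variation), and KIF3C at 97.5 against 121 and 116 (-0.28). The chains that pair in 1 motor thus differed in opposite directions. KIF17 stood at 5.995 CPM against 3.39 and 4.36, and KIF6 at 2.18 against 1.19 and 1.28, both from low counts. KIF27 was not called with unscaled library totals. Of 10 tested cargo members, 4 were called and highest in library 1 (KIF5B, KIF13A, KIF21A and KIFC2), beside 27.9% of all tested genes. A further 4 were called and lowest (KIFC3, KIF1B, KIF13B and KIF16B), beside 33.4%. With unscaled totals, KIF5B and KIF13A were in the middle. The median difference of the cargo members was 0.02, or -0.0079 with unscaled totals.

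**Figure D3:**
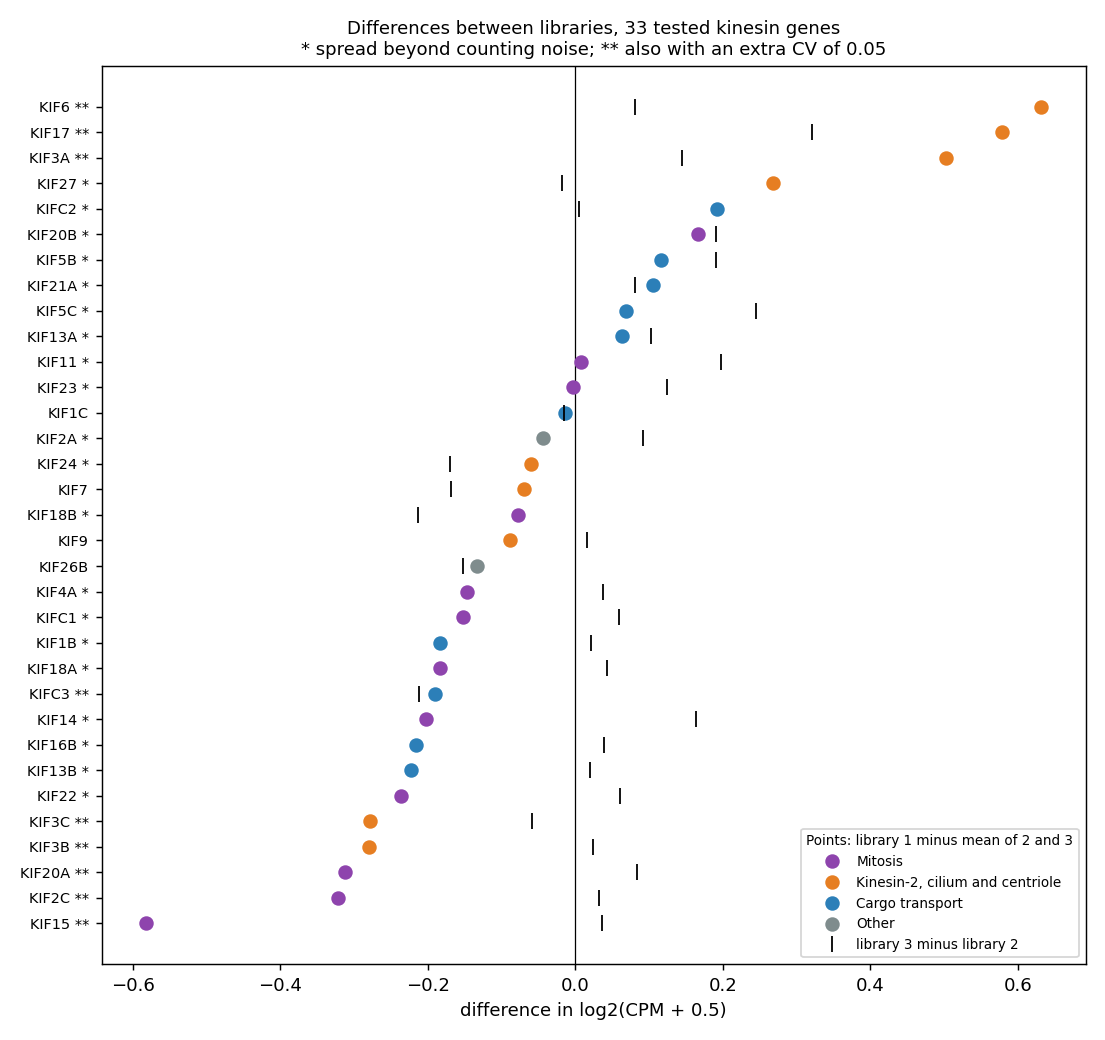
Difference in log2(CPM + 0.5) of the 33 tested kinesin genes, as library 1 minus the mean of libraries 2 and 3 (coloured points, by role) and library 3 minus library 2 (black ticks). KIF15, KIF2C and KIF20A lie lowest, at -0.58 to -0.31, and KIF3A, KIF17 and KIF6 highest, at 0.50 to 0.63.

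The GC content of transcripts was set beside the differences between libraries. GC was taken from the longest annotated transcript, and the correlations are descriptions across genes that share the same libraries. Between libraries 3 and 2, Spearman's rho of GC with the difference was -0.57 over the 33 tested members and -0.39 over 16288 tested genes. Over the 12909 protein-coding genes among these it was -0.47. Of the 7 members in the lowest of 5 equal classes of GC, 6 were higher in library 3, and KIF27 was at -0.018. The differences of the 6 ran from 0.04 in KIF18A (37.0% GC) to 0.20 in KIF11 (38.3%). KIF20B (34.2%) and KIF5B (39.1%) were at 0.19. The median of all tested genes was 0.094 in this class and -0.089 in the highest. The 7 members in the highest class were mixed: 3 were lower in library 3 (KIFC3, -0.21; KIF18B, -0.21; KIF7, -0.17) and 4 were higher (KIF17, 0.32; KIF22, 0.06; KIFC1, 0.06; KIFC2, 0.0047). For library 1 against the others, rho was -0.18 over the members, -0.26 over tested protein-coding genes and -0.22 over all tested genes. The median difference of all tested genes went from 0.075 in the lowest class to -0.13 in the highest. KIF15, with 41.2% GC, and KIF3A, with 37.8%, lay on opposite sides. The part of GC in the calls was not tested.

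**Figure D4:**
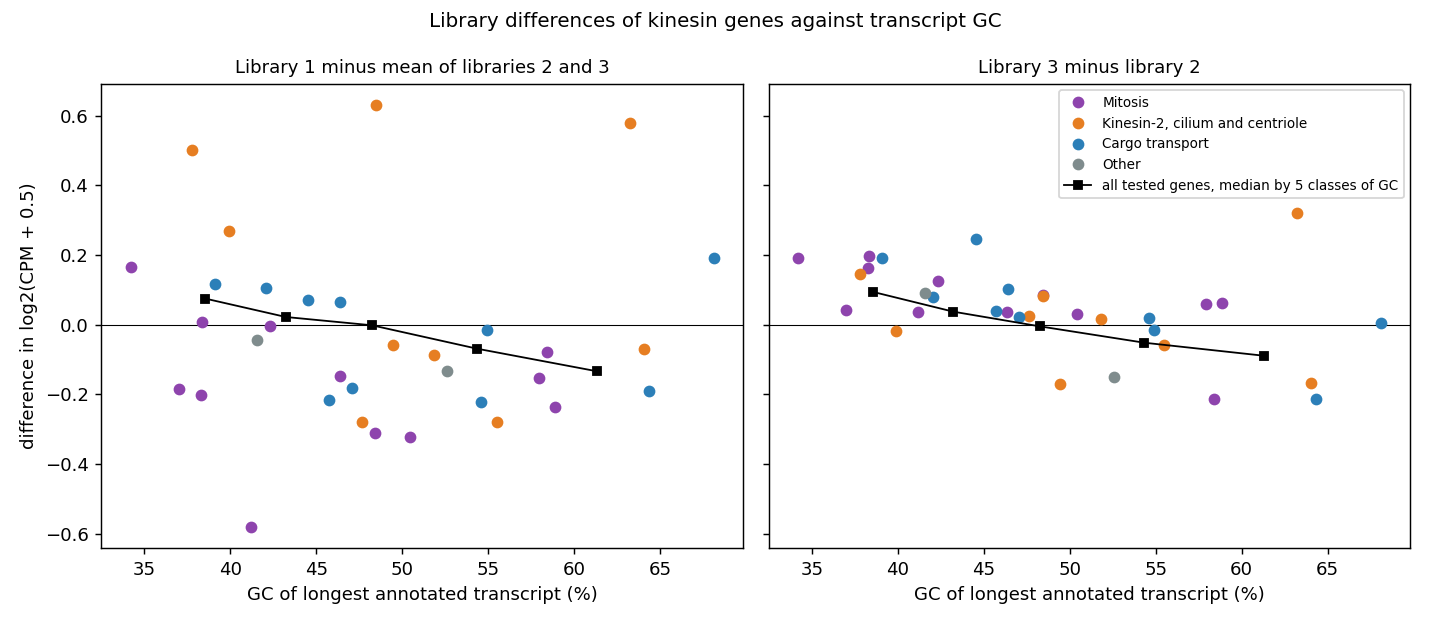
Differences of the 33 tested kinesin genes in log2(CPM + 0.5) against GC of the longest transcript, for library 1 against the others (left) and library 3 against library 2 (right); the black line joins medians of all tested genes by 5 classes of GC. KIF15, KIF3A, KIF17 and KIF6 lie far from the line in the left panel.

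The share of markers detected did not set the labelled identity apart. Of 10 pigment epithelium markers 5 were detected, beside 57.7% of all protein-coding genes and 5 of 10 neuron markers. OTX2 and MITF led, while RPE65 had 8, 6 and 0 counts and no read was counted for DCT, TTR or TYR. Of 6 blood markers 3 were detected, all with means below 1 RPKM, and HBB had 0 counts. The strand setting of the counting is not given in the sources used here, so reads of genes that overlap on opposite strands may not be separated. This touches 17.9% of the exon length of KIF9, 17.8% of KIFC2, 13.1% of KIF27, 13.0% of KIF22, 12.7% of KIFC1 and 11.8% of KIF7, and at most 7.78% in every other detected member. On the same strand, KIF2A shares 8.96% with another gene.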

How the data were processed

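The labels describe 3 libraries of 1 group. The authors deposited raw read counts per gene, as whole numbers. Per the submitters' processing notes, the tools included STAR 2.5.2a, cutadapt 1.16 and featureCounts 1.6.2, with hg38 as the build. How strands, multiply aligned reads and the gene annotation were handled is not given in the sources used here. A further 6 columns matched no sample label and were not used. All 58735 gene identifiers matched GENCODE release 29, which gave positions, exon unions and transcript GC.

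TMM factors came from edgeR 4.0.16 in R 4.3.3, DESeq2 1.42.0 gave the alternative size factors, and all else was computed in Python 3.11.15 with scipy 1.17.1. With 1 group, no comparison between groups was possible. The chi-square test was tested on simulated data first. Reads are not independent molecules, so its calls and the floors of 3 counts cover counting error only. Named genes were all members, by role, plus listed partners, pairs and markers. The values of 1 listed partner are not reported here. Members, roles and lists were chosen with earlier results of these data known.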

Additional observations from a re-analysis of the deposited data

How the results depend on the processing

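No paired analysis was possible because the labels give only 1 group. The number of detected members was 32 with DESeq2 size factors, unscaled totals, a limit of 0.5 CPM and without any 1 library, and 29 at a limit of 5 CPM. The number of members with a spread beyond counting noise was 14 to 28 when 1 library was left out, lowest without library 1. Leaving out library 2 ended 6 calls, and leaving out library 3 ended those of KIF23 and KIF2A and added KIF1C. The number was 9 with a coefficient of variation of 0.05 allowed, and 31 without the filter on low counts. It was 29 with unscaled totals, where KIF27 was lost and KIF1C gained. The median level of the mitosis members was 16.1 to 17.4 RPKM when 1 library was left out, 20.02 over detected members alone and 22.2 with the longest transcript as length. For the cilium members these values were 1.40 to 1.45, 1.75 and 1.55 RPKM, and for the cargo members 4.16 to 4.48, 6.24 and 7.09. Over all detected protein-coding genes the median was 6.09 RPKM. The order of the 3 groups was thus the same in each setting run. The number of pairs with 1 sign in all libraries was 12 to 13 throughout. Among the pairs, KIF18A over KIF18B turned to 0.18 with the longest transcript, KIF20A over KIF20B to -0.61 without length, and KIFC1 over KIFC3 to -0.40 without length and -0.0595 with the longest transcript. Other pairs kept their sign but moved in size with the length used. Without length, KIF5B over KIF5C was 4.59, KIF1C over KIF1B 2.06 and KIF2A over KIF2C -0.89. With the longest transcript, KIF13A over KIF13B was 1.84. The median library 1 difference of the cargo members turned to -0.0079 with unscaled totals, and that of all members lay between -0.11 and -0.048 over the settings. Ratios against KIF5A, KIF21B, KIF4B and KIF26A rest on 25 counts or fewer and are limited by depth.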

Other observations

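KIF9-AS1, the antisense neighbour of KIF9, had 30, 139 and 97 counts in libraries 1, 2 and 3, while KIF9 had 174, 232 and 181. Other genes named after kinesins were nearly silent. KIF28P, a unitary pseudogene, had 0, 1 and 0 counts, and KIF3AP1, KIF4CP, KIF18BP1, KIF26B-AS1 and KIF25-AS1 had 0 counts in each library.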
